A study of Mus musculus with 64 samples.

Results

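The genes described here are 10 apolipoproteins, the protein parts of the particles that carry fat and cholesterol in blood: Apob, Apoa1, Apoa2, Apom, Apoc2, Apoa5, Apoc1, Apoc3, Apoe and Apoa4. They were taken by symbol from deposited tables of 19521 genes, one of estimated read counts and one of TPM (a share of all transcripts, corrected for transcript length), and each was read in all 64 libraries. The libraries are of RNA from 4 tissues of male C57BL/6 mice: liver, white fat (white adipose tissue, WAT), heart and muscle. The series deals with the liver enzyme gene Pklr and fatty liver. The labelled KO mice are described as Pklr-/- mutants and the CTRL mice as wild type, and how the mutant allele was made is not given in the sources used here. From 8 weeks of age the mice were fed a high-sucrose diet (HSD) or chow for 8 weeks, and tissue was taken at 16 weeks. Each tissue thus has 4 groups of 4 mice: labelled KO on HSD, labelled KO on chow, CTRL on HSD and CTRL on chow.

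Liver secretes triglyceride-rich very low-density lipoprotein (VLDL) built around a single molecule of apolipoprotein B, and the small apolipoproteins exchange between VLDL, chylomicrons and high-density lipoprotein (HDL). In the capillaries of fat and muscle, lipoprotein lipase takes the triglyceride out of these particles, helped or held back by apolipoproteins on their surface, and apolipoprotein E brings the remnants to receptors of the liver. Sugar feeding is known to raise fat synthesis and VLDL output in rodent liver. The labels do not say how the libraries were prepared, so it is not known whether strand was recorded.

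Total estimated counts were 6714622 to 12061137 per liver library, 5724366 to 11927089 per WAT library, 8078117 to 12188623 per heart library and 6669448 to 11685928 per muscle library. Pklr, the targeted gene, went against the genotype label in liver: the means on HSD were 405 ± 63.4 TPM for labelled KO against 213 ± 44.8 TPM for CTRL, and those on chow 212 ± 55.2 TPM against 113 ± 37.1 TPM for the same genotypes (SD, n = 4 each). All directions below follow the labels. The tissues carried their own markers, with summed levels of at least 52264 TPM for 9 hepatocyte genes in liver, 36918 TPM for 8 adipocyte genes in WAT, 13235 TPM for 8 cardiomyocyte genes in heart and 33662 TPM for 8 skeletal muscle fibre genes in muscle. Some libraries stood apart. The acute phase gene Saa1 was at 45057, 4974 and 675 TPM in liver CTRL chow replicates 1, 3 and 4 and at 1534 TPM in CTRL HSD replicate 4, against 40.4 to 85.1 TPM in the other 12 livers. Albumin (Alb), a hepatocyte gene, was at 272 TPM in WAT labelled-KO chow replicate 3, against 9.99 to 44.1 TPM in the other WAT libraries. It was at 35.7 TPM in muscle labelled-KO HSD replicate 4 and 31.1 TPM in CTRL chow replicate 2, against 4.37 to 15.2 TPM in the other muscles. A clock score, the mean log2 CPM of 6 clock-controlled genes minus that of 3 genes of the opposite phase, also separated groups. In liver it was 2.15 to 3.90 in labelled KO on HSD, 0.89 to 2.20 in labelled KO on chow, -2.84 to -0.01 in CTRL on HSD and 0.50 to 2.98 in CTRL on chow. The score was thus below every chow value in all 4 CTRL livers on HSD, while in labelled KO it was higher on HSD apart from a small overlap.

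Liver held by far the most of these transcripts. The 10 genes together made up 4.11 to 6.63% of the deposited TPM in liver (median 5.37%), 0.146 to 0.355% in WAT (median 0.305%), 0.00342 to 0.00968% in heart (median 0.00631%) and 0.00322 to 0.00965% in muscle (median 0.005%). In bulk tissue, fewer cells of a type and less RNA per cell cannot be told apart. On the TPM scale the order in liver, by median over 16 libraries, was Apoa2 (18831), Apoc1 (11113), Apoa1 (6640), Apoc3 (4379), Apoe (4202), Apoa5 (1112), Apob (763), Apoc2 (465), Apom (300) and Apoa4 (242). Neighbours in this order overlapped in their ranges, as Apoc3 and Apoe did at 2778 to 5715 and 2578 to 5993 TPM, except that every Apoe value lay above every Apoa5 value. By mean TPM Apoa2 ranked 8 among all genes in liver and Apoc1 ranked 16, and the lowest of the members, Apom, ranked 308.

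Outside liver, Apoe was the member with the highest level in each of the 3 tissues. It was at 930 to 2467 TPM in WAT (median 1763, rank 45 by mean). Heart libraries held 23.4 to 80.8 TPM (median 51.1, rank 840) and muscle libraries 18.2 to 44 TPM (median 27.4, rank 1938). Its lowest liver library, at 2578 TPM, lay above its highest WAT library, and all WAT libraries lay above all heart libraries, while heart and muscle overlapped. Apoc1 was the only other member above 100 TPM in the median of a tissue other than liver, at 265 to 927 TPM in WAT (median 533, rank 177). Its range was 0.363 to 3.52 TPM in heart, and in muscle it was 1.23 to 23.2 TPM. Apoc2, the third gene of the same chromosome 7 cluster, had a median of 6.57 TPM in WAT and was at 0 counts in 10 of 16 hearts and 6 of 16 muscles. Apoa2 had medians of 4.51 TPM in WAT, 3.13 in heart and 3.86 in muscle. The other 6 members had medians of at most 3.08 TPM outside liver, and Apom and Apoa4 were at 0 counts in 11 and 10 of the 16 hearts.

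**Figure D1:**
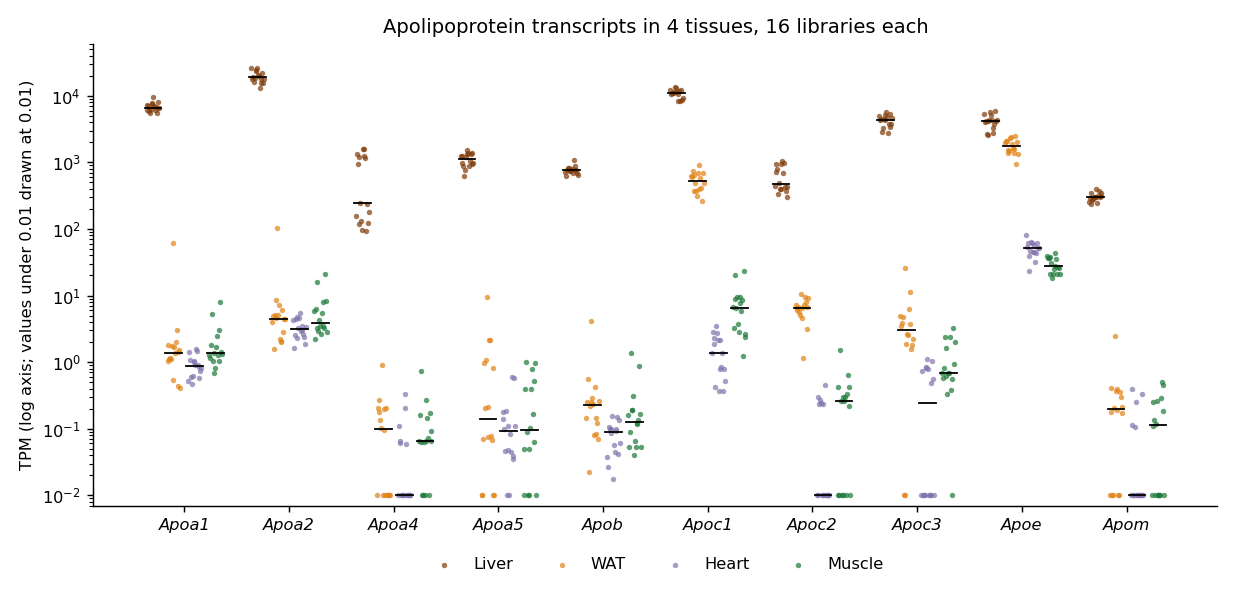
TPM of the 10 apolipoproteins (log axis; values under 0.01 are drawn at 0.01) in 16 libraries each of liver, WAT, heart and muscle; each point is a library and each bar the median. Liver lies highest for every gene, WAT comes closest to it for Apoe, and in liver Apoa4 has the widest range, from 94.5 to 1600 TPM.

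Between-tissue differences were tested with edgeR's quasi-likelihood test on counts over all 64 libraries and 14592 genes, with Benjamini-Hochberg adjustment over all of them and a threshold of 0.05. The tissues come from the same 16 mice, and the labels do not tie libraries to mice. The fit treated the 64 libraries as independent, so its p-values take no account of shared mice. Log2 fold changes are given with approximate standard errors. On this scale Apoe was higher by 2.62 ± 0.12 in liver than in WAT (adjusted p = 4.01e-27), by 3.59 ± 0.13 in WAT than in heart (adjusted p = 1.97e-32) and by 1.02 ± 0.12 in heart than in muscle (adjusted p = 8.1e-11). The scale matters for the size: with limma on log2(TPM + 1) the same differences of Apoe were 1.23, 5.11 and 0.78. Apoc1 was higher by 5.80 ± 0.18 in liver than in WAT and by 7.04 ± 0.25 in WAT than in heart, and lower by the fitted value of -2.20 ± 0.35 in heart than in muscle (adjusted p = 1.48e-07). The Apoc1 counts in heart were 57 in all 16 libraries together. Apoc2 had 255 counts over the 16 WAT libraries, 7 over the hearts and 17 over the muscles, too few outside WAT for a fold to be given. By their liver counts all 10 members were sure to enter the fit, and most of them are near 0 elsewhere, so their count of calls is not read: 10 were higher in liver in each comparison, where 85.1% (WAT), 83.5% (heart) and 84.6% (muscle) of all genes were called. WAT against heart called 4 members and 80.6% of all genes, WAT against muscle 4 members and 84.6%, and heart against muscle 3 members and 68.5%. Of these, Apoa2 in WAT against muscle (-1.12 ± 0.35, adjusted p = 0.00313) was not called with limma (-0.00), and Apoc3 in heart against muscle (-1.43 ± 0.66, adjusted p = 0.0489) lost its call in 14 of 20 alternatives.

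The diet comparison in liver asked which apolipoproteins change with sucrose feeding, and it singled out Apoa4 and Apoc2. Apoa4 is made by intestine and by liver in fat loading, is carried on chylomicrons and HDL, and in mice is known to enlarge the VLDL particle. Apoc2 is the cofactor that lipoprotein lipase needs. Apoa4 lies in the cluster of Apoa1, Apoc3, Apoa4 and Apoa5 on mouse chromosome 9 (GRCm38, 46240696 to 46243459, plus strand), and Apoc2 lies with Apoe and Apoc1 on chromosome 7 (19671579 to 19677941, minus strand). The bases just before the 2 genes are shown because these were the members that passed the diet test in liver. They come from the RefSeq promoter table of GRCm38.p6, the Apoa4 stretch being chr9:46240594-46240695 on the plus strand and the Apoc2 stretch chr7:19677942-19678082 on the minus strand, which ends at the neighbouring Apoc4.
Apoa4: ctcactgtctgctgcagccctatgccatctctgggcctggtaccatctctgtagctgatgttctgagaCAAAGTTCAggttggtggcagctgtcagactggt
Apoc2: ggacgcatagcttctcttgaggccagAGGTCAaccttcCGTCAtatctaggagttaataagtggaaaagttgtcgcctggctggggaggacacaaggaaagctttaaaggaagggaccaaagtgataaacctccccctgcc
Capitals mark matches to 4 motifs searched on both strands: CAAAGTNCA (a core of HNF4-type sites), AGGTCA (a nuclear receptor core), TGACG (a core of CREB-type sites) and CACGTG (an E-box). No match overlapped another. Apoa4 has CAAAGTNCA beginning 34 bases before the gene, and 0.426% of 32851 RefSeq promoters hold it in the same 102-base window. Apoc2 has AGGTCA beginning 115 bases before the gene (8.05% of promoters in its 141-base window) and TGACG on the other strand at 103 bases (12.8%). CACGTG was in neither stretch (1.79% and 4.12% of promoters). The matches describe these letters only.

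Apoa4 was at 156, 1315, 951 and 1192 TPM in labelled-KO livers on HSD, against 120, 244, 131 and 95.4 TPM in labelled KO on chow. Among CTRL the levels were 1569, 1600, 1239 and 1157 TPM on HSD, against 94.5, 240, 121 and 181 TPM on chow. All 4 CTRL livers on HSD lay far above all those on chow. In labelled KO 3 of 4 did, and replicate 1 stayed among the chow values. Averaged over genotypes Apoa4 rose on HSD by a log2 fold change of 2.75 ± 0.37 (edgeR adjusted p = 0.00167). In CTRL alone the rise was 3.02 ± 0.54 (adjusted p = 0.0109), and in labelled KO the value was 2.48 ± 0.52 (adjusted p = 0.126).

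Apoc2 moved with it at a smaller size. It was at 441, 932, 719 and 809 TPM in labelled-KO livers on HSD, against 334, 490, 394 and 403 TPM in labelled KO on chow. In CTRL it was at 939, 1032, 702 and 982 TPM on HSD, against 434, 371, 307 and 420 TPM on chow. The CTRL groups did not overlap, and the labelled-KO groups overlapped only through HSD replicate 1, the same library that was low for Apoa4. Averaged over genotypes Apoc2 rose by 0.91 ± 0.14 (adjusted p = 0.0026), in CTRL by 1.13 ± 0.20 (adjusted p = 0.0102), and the value in labelled KO was 0.70 ± 0.20 (adjusted p = 0.219). The difference between the genotypes' diet effects did not pass the test for Apoa4 (-0.54 ± 0.70) or Apoc2 (-0.44 ± 0.29).

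**Figure D2:**
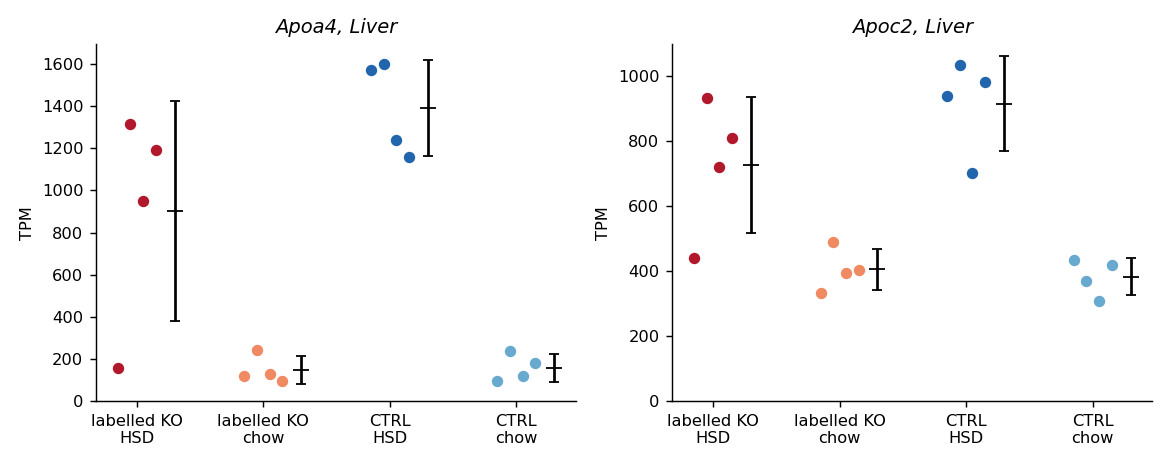
TPM of Apoa4 (left) and Apoc2 (right) in liver by group; points are libraries and bars the mean ± SD of 4. The HSD groups lie above the chow groups except for labelled-KO HSD replicate 1, at 156 TPM for Apoa4 and 441 TPM for Apoc2.

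In CTRL livers 2 of 10 members were called for diet, both higher, where 4.67% of 11259 genes were called. Averaged over genotypes it was the same 2 of 10, against 5.59% of all genes, and the median log2 fold change was -0.12 for the 10 members and -0.01 for all genes. In labelled KO no member was called with edgeR, 2 had an unadjusted p under 0.05, DESeq2 called 2 and limma 0, where edgeR called 0.00888% of all genes. Leaving out labelled-KO HSD replicate 1, a choice made after its values were seen, gave 2.83 for Apoa4 (adjusted p = 0.000484) and 0.88 for Apoc2 (adjusted p = 0.0141) in labelled KO. The CTRL calls were lost with the clock score as covariate (Apoa4 3.40, adjusted p = 0.227; Apoc2 1.12, adjusted p = 0.241) and without CTRL chow replicates 1 and 3, the livers with the most Saa1 (2.62, adjusted p = 0.0867; 1.06, adjusted p = 0.0683). The calls averaged over genotypes held in all 25 alternatives, at 2.55 to 2.94 for Apoa4 and 0.85 to 1.03 for Apoc2. The part of the clock in the diet values within 1 genotype was not tested further.

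Apoc2 shares exons with the annotated readthrough gene Gm44805, so its estimated counts can be split between them. Gm44805 averaged 29.7 ± 7.68 TPM in labelled KO on HSD and 34.1 ± 2.42 TPM in labelled KO on chow, and 33.8 ± 5.98 TPM in CTRL on HSD and 43.5 ± 8.21 TPM in CTRL on chow. Apoa4 overlaps annotated antisense genes, and without strand their reads cannot be told from its own. Markers of intestinal epithelium, where Apoa4 is also made, were counted beside it. Of 6 such genes 4 were in the tables, and their summed level was 114 to 210 TPM on HSD (median 196) and 46.7 to 114 TPM on chow (77.7), and none was at 0 counts in all 16 livers. Only Fabp2 and Lgals4 passed the filter. Fabp2 rose by 1.11 ± 0.15 and Lgals4 did not pass, so a rise was called for Fabp2 alone and not for the markers as a set. Their part in the Apoa4 result was not tested. Summed hepatocyte markers were 83209 to 94223 TPM on HSD and 52264 to 78302 TPM on chow.

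The genes whose log2 CPM followed Apoa4 most closely over the 16 livers, leaving out members and predicted genes, were Fads1 and Fads2, desaturases of polyunsaturated fat (r = 0.968 and 0.953), G6pdx (0.965), which supplies NADPH, the elongase Elovl2 (0.965) and the glycolytic enzyme Gpi1 (0.944). Apoc2 followed it with r = 0.935. These points share library, depth and the diet groups.

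The structural gene Apob (chromosome 12, 7977648 to 8016835, plus strand) did not pass the diet test. It was at 725, 629, 762 and 824 TPM in labelled-KO livers on HSD, against 821, 754, 744 and 775 TPM on chow. CTRL libraries were at 799, 701, 1099 and 880 TPM on HSD, against 766, 764, 696 and 639 TPM on chow. The groups overlapped within both genotypes, and the averaged log2 fold change was 0.03 ± 0.13. Its sign turned in 6 of 25 alternatives.

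Among the members that are main parts or cargo carriers of HDL, none of Apoa1, Apoa2 and Apom passed the diet test in liver. Apoa1 (chromosome 9, 46228580 to 46230466, plus strand), the main protein of HDL and activator of Lcat, averaged 6642 ± 680 TPM in labelled KO on HSD and 6755 ± 1060 TPM in labelled KO on chow, and 7316 ± 1456 TPM in CTRL on HSD and 6690 ± 1040 TPM in CTRL on chow (SD, n = 4 each). Apoa2 (chromosome 1, 171225054 to 171226379, plus strand), the other main HDL protein, was at 26222, 17696, 19224 and 16010 TPM in labelled KO on HSD, against 18439, 24166, 23711 and 26098 TPM on chow. In CTRL Apoa2 was at 20359, 19589, 13131 and 17942 TPM on HSD, against 15308, 22066, 15494 and 17875 TPM on chow. All these groups overlapped. Apom (chromosome 17, 35128997 to 35132050, minus strand), the carrier of sphingosine-1-phosphate on HDL, averaged 284 ± 47.4 and 291 ± 14.7 TPM in labelled KO on HSD and on chow, and 314 ± 62.2 and 331 ± 33.5 TPM in CTRL on HSD and on chow. The averaged log2 fold changes with diet were -0.10 ± 0.12 for Apoa1, -0.24 ± 0.13 for Apoa2 and -0.19 ± 0.10 for Apom, none past the threshold.

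Of the members that act on lipolysis, only Apoc2 passed the diet test. Apoa5 (chromosome 9, 46268633 to 46271919, plus strand), which promotes lipolysis, averaged 1087 ± 198 and 983 ± 339 TPM in labelled KO on HSD and on chow, and 1208 ± 303 and 1151 ± 222 TPM in CTRL on HSD and on chow. Its log2 fold change with diet was -0.01 ± 0.15 and changed sign in 12 of 25 alternatives. Apoc3 (chromosome 9, 46232933 to 46235636, minus strand), which inhibits lipolysis and remnant uptake, was at 4138 ± 862 and 4306 ± 791 TPM in labelled KO on HSD and on chow, and 4261 ± 1282 and 4322 ± 888 TPM in CTRL on HSD and on chow. Apoc1 (chromosome 7, 19689481 to 19692660, minus strand), which hinders lipoprotein lipase and uptake by receptors, was at 12123, 10705, 11054 and 10865 TPM in labelled KO on HSD, against 11172, 11564, 13473 and 13287 TPM on chow. In CTRL it was at 11388, 10619, 8481 and 11730 TPM on HSD, against 8285, 12266, 8780 and 9204 TPM on chow. The diet groups overlapped for each of these genes, with averaged values of -0.18 ± 0.15 for Apoc3 and -0.14 ± 0.10 for Apoc1. Apoe (chromosome 7, 19696109 to 19699188, minus strand), the receptor ligand of remnants, was at -0.24 ± 0.16. The adjusted p-values of the 8 members other than Apoa4 and Apoc2 were 0.276 to 0.98 in the averaged diet test.

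**Figure D3:**
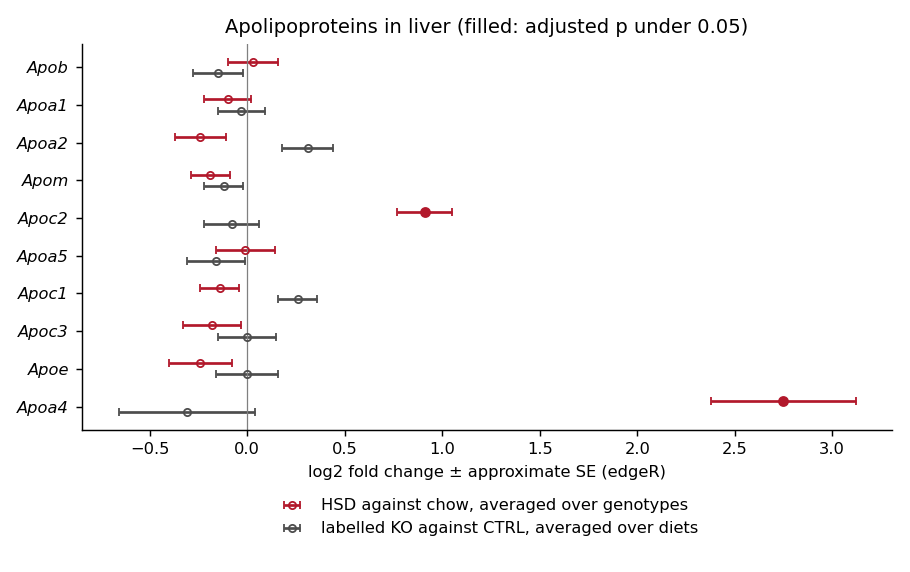
Log2 fold changes of the 10 apolipoproteins in liver from edgeR, with bars of 1 approximate standard error, for HSD against chow averaged over genotypes (red) and labelled KO against CTRL averaged over diets (grey); filled points have an adjusted p under 0.05. Apoa4 (2.75) and Apoc2 (0.91) stand apart in the diet comparison, and no point of the genotype comparison is filled.

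The genotype comparison asked whether the labelled mutation shifts these genes in liver, and no member passed. On chow edgeR called 0 of 10 members and 0% of 11259 genes, with 2 members and 1377 genes at an unadjusted p under 0.05; DESeq2 and limma called 0 members. On HSD it called 0 members, 0 at an unadjusted p under 0.05, 0 with DESeq2 or limma, and 0.0711% of all genes. Averaged over diets it called 0 members and 0% of genes, with 2 members at an unadjusted p under 0.05 and 0 with DESeq2 or limma. The interaction called 0 members and 0% of genes, none at an unadjusted p under 0.05 and none with DESeq2 or limma. The 2 members nearest to a difference were Apoc1 and Apoa2. On chow Apoc1 averaged 12374 ± 1175 TPM in labelled-KO livers, against 9634 ± 1795 TPM in CTRL livers, a log2 fold change of 0.41 ± 0.14 (adjusted p = 0.274), and Apoa2 averaged 23103 ± 3277 TPM in labelled KO, against 17686 ± 3146 TPM in CTRL, at 0.43 ± 0.18 (adjusted p = 0.346). The groups overlapped for both genes. Without the 2 CTRL chow livers with the most Saa1, Apoc1 was at 0.24 (adjusted p = 0.732).

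Genes that act on the same particles were counted by lists, beside a median of -0.01 for all genes in the averaged diet comparison in liver. That comparison called 5.59% of all genes. The lists are short, so their counts are not read as results about the lists. Of 13 genes of lipoprotein assembly and secretion 1 rose, Mttp, which loads fat onto apolipoprotein B (0.34 ± 0.09, adjusted p = 0.0374), and the list's median was 0.10. The cargo receptor Surf4 (0.23 ± 0.08) and Tm6sf2 (0.44 ± 0.16), both needed for VLDL output, did not pass. Of 7 genes of HDL formation 1 fell, Lcat, which esterifies HDL cholesterol (-0.43 ± 0.11, adjusted p = 0.0319). Of 9 lipolysis genes 1 rose, Gpihbp1, the capillary anchor of lipoprotein lipase (0.32 ± 0.09, adjusted p = 0.0476), beside summed endothelial markers of 65.6 to 82.1 TPM on HSD and 46.6 to 70.6 TPM on chow. In that list 1 fell, Lmf1, which folds the lipase (-0.55 ± 0.12, adjusted p = 0.0121). Of the 11 tested genes of receptors and uptake 1 fell, Lrp1, a remnant receptor (-0.59 ± 0.14, adjusted p = 0.0219). Of 10 HDL-borne and serum amyloid genes 3 fell, among them Saa4 (-1.40 ± 0.30) and Pon1 (-0.41 ± 0.11), beside the Saa1 values above; Lcat is on this list too. Of 19 regulators 1 rose, the coactivator Ppargc1a (0.98 ± 0.14, adjusted p = 0.00108). Among 10 other apolipoproteins tested, Apol7a fell (-0.50 ± 0.14, adjusted p = 0.0476), and Clu (-0.50 ± 0.16) and Apon (-0.39 ± 0.11) did not pass. None of the 4 genes of Apob mRNA editing passed. Ppargc1a and Saa4 kept their calls in all 25 alternatives, Lmf1 in 24 and Lrp1 in 18, while Mttp lost its call in 13, Lcat in 14, Gpihbp1 in 16, Pon1 in 18 and Apol7a in 18.

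Averaged over genotypes, where 11% of all genes were called, the member called for diet in WAT was Apoc1. It was at 634, 609, 732 and 640 TPM in labelled KO on HSD, against 375, 490, 373 and 309 TPM in labelled KO on chow. CTRL values were 692, 405, 927 and 574 TPM on HSD, against 407, 265, 683 and 492 TPM on chow. The labelled-KO groups did not overlap and the CTRL groups did. Averaged over genotypes Apoc1 rose by 0.80 ± 0.20 (edgeR adjusted p = 0.0213), with values of 0.90 ± 0.29 in labelled KO (adjusted p = 0.0777) and 0.70 ± 0.29 in CTRL (adjusted p = 0.166). With the clock score as covariate it was 0.74 with an adjusted p of 0.251; the score in WAT was 2.48 to 3.38 in labelled KO on HSD, -1.65 to 0.08 in labelled KO on chow, -1.53 to 0.23 in CTRL on HSD and -0.52 to 1.45 in CTRL on chow. Macrophages also make Apoc1 and Apoe. The summed level of 10 macrophage markers was 924 to 1415 TPM on HSD (median 1278) and 1212 to 1828 TPM on chow (1481), and Cd68 fell by 0.56 on the log2 scale (-0.56 ± 0.13). The summed adipocyte markers were 45156 to 61718 TPM on HSD (median 53492) and 36918 to 53716 TPM on chow (44395). Of 8 endothelial markers 4 fell and of 6 fibroblast markers 4 fell. Hepatocyte markers were counted too. Of this list 7 genes were tested and 1 rose, Cyp2e1, which had by far the highest level of the 7 in WAT, and the summed level was 4183 to 5315 TPM in labelled KO on HSD and 1705 to 2813 TPM in labelled KO on chow. In CTRL the sum was 2335 to 4348 TPM on HSD and 2173 to 3740 TPM on chow. Albumin was 26.1 to 31.9 TPM in labelled KO on HSD and 18 to 272 TPM in labelled KO on chow, and 33.8 to 44.1 TPM in CTRL on HSD and 9.99 to 18.1 TPM in CTRL on chow. The part of cell makeup in the Apoc1 value was not tested.

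Apoe, the most abundant member in WAT, passed no diet or genotype test there. It was at 1952, 2110, 2096 and 1388 TPM in labelled KO on HSD, against 1545, 1496, 2287 and 2412 TPM on chow. In CTRL it was at 1895, 1631, 1585 and 1371 TPM on HSD, against 2467, 930, 2058 and 1318 TPM on chow. All groups overlapped, and the averaged log2 fold changes were 0.11 ± 0.17 for diet and 0.21 ± 0.17 for genotype. Among the genes closest to Apoe in pattern over the 16 WAT libraries were Tspo (r = 0.927), Fcgrt (0.916) and Ndufa7 (0.91), with library and depth shared. Apoc2 was at 0.08 ± 0.33 for diet.

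The other members in WAT turned on labelled-KO chow replicate 3, the library with the most albumin. There Apoa2 was at 104 TPM against at most 8.64 TPM in the other 15, Apoa1 at 61.9 against at most 3.01, Apoc3 at 25.7 against at most 11.4, Apoa5 at 9.45 against at most 2.15, Apob at 4.17 against at most 0.558 and Apom at 2.5 against at most 0.412 TPM. Apoc1 was not raised in it, at 373 TPM with 13 of the other 15 higher. As a share of albumin in the same library, 7 members lay within the range of the 16 livers, such as Apoa1 at 22.8% (livers 9.68 to 48%), Apoa2 at 38.3% (21.5 to 132%) and Apom at 0.92% (0.385 to 3.18%). Apoc1 (137%), Apoe (841%) and Apoc2 (3.95%) lay above theirs. Apart from that of Apoa4, the upper ends of these ranges come from the liver with the least albumin, CTRL chow replicate 1. It had 11570 TPM of albumin, against 30176 to 67026 TPM in the other livers. Without it Apoa1 and Apoa5 would also lie above their ranges. The liver medians were 13% for Apoa1, 42.1% for Apoa2 and 0.584% for Apom. The part of liver RNA in this WAT library was not tested. For Apoa2, labelled KO against CTRL on chow was 2.82 ± 0.87 (adjusted p = 0.064) with this library and 0.58 without it, and HSD against chow in labelled KO was -2.83 ± 0.89 with it and -0.57 without. Apoc3 was at 4.99, 3.47, 3.91 and 4.78 TPM in labelled KO on HSD, against 0, 0, 25.7 and 1.9 TPM on chow, and at 2.69, 2.58, 6.36 and 11.4 TPM in CTRL on HSD, against 3.76, 1.57, 1.78 and 2.23 TPM on chow. Its averaged diet value of 0.53 ± 0.68 (adjusted p = 0.674) became 2.09 (adjusted p = 0.0207) without that library, at a few counts per library and by a choice made after the values were seen.

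Only 5 members passed the filter in WAT (Apoa2, Apoc1, Apoc2, Apoc3 and Apoe), of 13255 genes. The averaged diet test called 1 of them, where 11% of all genes were called. In the other 6 comparisons edgeR called 0. Labelled KO against CTRL called 6.68% of genes on chow, 0.106% on HSD and 3.09% averaged, with 1, 0 and 1 of the 5 at an unadjusted p under 0.05. HSD against chow called 4.77% in CTRL and 6.38% in labelled KO, with 1 and 2 at an unadjusted p under 0.05, and the interaction called 0.573%, with 0. Among these, DESeq2 called 1 member, Apoc1 in labelled KO, and limma 0. Beside these, of 19 regulators 15 were tested and 5 rose with diet, among them the sugar- and insulin-responsive factors Srebf1 (0.76 ± 0.16, adjusted p = 0.00812) and Mlxipl (0.72 ± 0.16, adjusted p = 0.0114). Of 8 lipolysis genes 1 fell, Angptl4, an inhibitor of lipoprotein lipase (-0.55 ± 0.12, adjusted p = 0.0073), and of 11 uptake genes 2 fell, Sdc1 (-0.40 ± 0.09) and Stab1 (-0.39 ± 0.11). Of 10 assembly genes Dgat1, which makes triglyceride, and Lpcat3 rose (0.59 ± 0.09 and 0.50 ± 0.12) and P4hb fell (-0.22 ± 0.07). Srebf1, Mlxipl, Angptl4, Sdc1, Dgat1 and Lpcat3 each lost the call in 1 of 24 alternatives, Stab1 in 8 and P4hb in 17.

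In muscle Apoe had the smallest adjusted p of the members for diet averaged over genotypes. It was at 38.7, 36.2, 37.2 and 38.2 TPM in labelled KO on HSD, against 21, 30.7, 18.2 and 21.1 TPM in labelled KO on chow. The CTRL values were 24.9, 27.6, 44 and 35.9 TPM on HSD, against 20.8, 27.1, 25.8 and 21.4 TPM on chow. The labelled-KO groups did not overlap, and the CTRL groups overlapped. The averaged log2 fold change was 0.54 ± 0.13 and missed the threshold with edgeR (adjusted p = 0.0594), but passed with DESeq2 (adjusted p = 0.00851) and with limma on log2(TPM + 1) (adjusted p = 0.0336). It also passed without labelled-KO chow replicate 2 (0.63, adjusted p = 0.0213) or without CTRL HSD replicate 1 (0.60, adjusted p = 0.0332). In 20 of 25 alternatives it missed the threshold. By genotype the values were 0.71 ± 0.19 in labelled KO (adjusted p = 0.197) and 0.37 ± 0.19 in CTRL (adjusted p = 0.379). With the clock score as covariate the averaged value of Apoe was 0.28 (adjusted p = 0.798); the score was 0.28 to 1.34 in labelled KO on HSD, -1.73 to -1.45 in labelled KO on chow, -1.85 to -0.33 in CTRL on HSD and -2.34 to -0.28 in CTRL on chow.

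**Figure D4:**
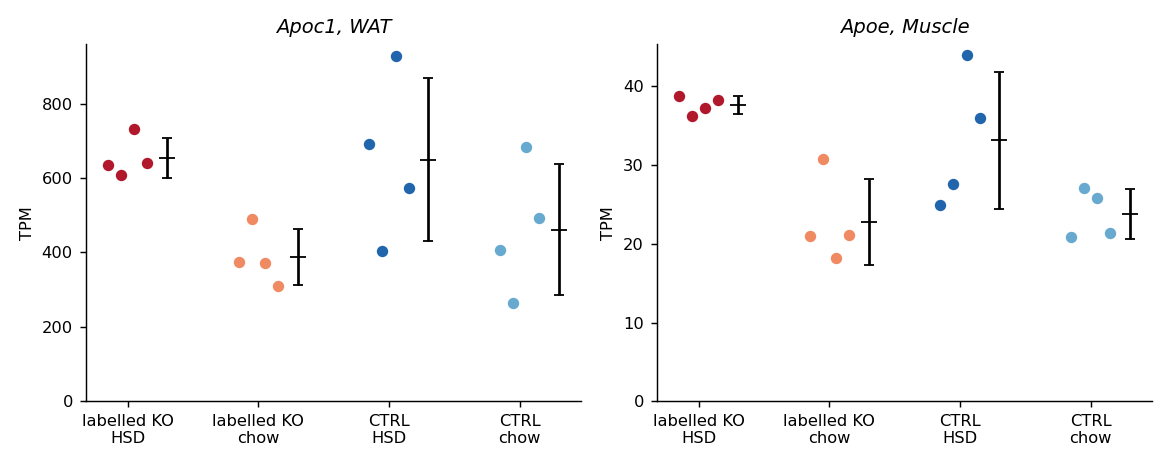
TPM of Apoc1 in WAT (left) and Apoe in muscle (right) by group; points are libraries and bars the mean ± SD of 4. In labelled KO the HSD and chow groups do not overlap in either panel (609 to 732 and 309 to 490 TPM for Apoc1, 36.2 to 38.7 and 18.2 to 30.7 TPM for Apoe), while in CTRL they overlap.

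Markers of adipocytes, which make Apoe, were counted beside it in muscle. Of 8 adipocyte markers 5 rose in the averaged diet test, among them Plin1 (0.91 ± 0.17), Cfd (0.91 ± 0.16) and Cidec (0.96 ± 0.18), and their summed level was 533 to 857 TPM on HSD (median 735) and 553 to 690 TPM on chow (632). None of 9 tested macrophage markers passed, with Csf1r at 0.46 ± 0.11 (adjusted p = 0.0507). Of 9 hepatocyte markers 1 rose, Cyp2e1, which also had by far the highest level of the list's tested genes in WAT. The list's summed level was 44 to 84.5 TPM in labelled KO on HSD and 23.1 to 29.8 TPM in labelled KO on chow, without overlap. In CTRL the sum was 29.1 to 55.5 TPM on HSD and 24.2 to 67.8 TPM on chow. Albumin did overlap, at 6.59 to 35.7 TPM in labelled KO on HSD and 5.8 to 8.85 TPM in labelled KO on chow. In CTRL albumin was 7.49 to 15.2 TPM on HSD and 4.37 to 31.1 TPM on chow. The part of all these markers in the Apoe value was not tested. Abca1, which hands cholesterol to apolipoproteins, rose (0.91 ± 0.16, adjusted p = 0.0142), as did the sorting receptor Sort1 (0.67 ± 0.12) and the regulators Srebf1 (0.79 ± 0.14) and Foxo1 (0.57 ± 0.11). Abca1, Srebf1 and Sort1 each lost the call in 1 of 25 alternatives and Foxo1 in 4.

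Of 12092 genes tested in muscle 5 were members (Apoa1, Apoa2, Apob, Apoc1 and Apoe), and edgeR called 0 of them in all 7 comparisons. The shares of all genes called were 0% for labelled KO against CTRL on chow, on HSD and averaged, 0.091% for HSD against chow in CTRL, 0.00827% in labelled KO and 1.12% averaged, and 0% for the interaction. At an unadjusted p under 0.05 there were 2, 1 and 0 members for genotype, 1, 1 and 1 for diet and 2 for the interaction. DESeq2 called 1, Apoe, for diet in labelled KO and averaged, limma called 1, Apoe, averaged, and DESeq2 gave no adjusted p to the members on chow. The low members followed 2 libraries: Apoa1 was at 5.19 TPM in labelled-KO HSD replicate 4 and 8.04 TPM in CTRL chow replicate 2, the muscles with the most albumin, and between 0.694 and 3.02 TPM in the others. The interaction of Apob was 3.21 ± 1.11 (adjusted p = 0.618) with them and 0.92 without them.

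In heart the members gave no call. Apoe was at 80.8, 52.9, 61.6 and 23.4 TPM in labelled KO on HSD, against 39.8, 47.4, 62.7 and 60.8 TPM on chow. In CTRL it was at 44.4, 56.5, 45.8 and 32 TPM on HSD, against 44.2, 62.3, 51.1 and 51.1 TPM on chow. All groups overlapped, and its widest spread was within labelled KO on HSD. The averaged diet value was 0.09 ± 0.16 and Apoa2 was at 0.28 ± 0.28. Apoa1, which did not pass the filter and was not tested, was at 0.892 to 1.6 TPM in CTRL on HSD and 0.583 to 0.838 TPM in CTRL on chow. These are only 8 to 15 and 5 to 8 estimated counts per library. In labelled KO Apoa1 overlapped, at 0.517 to 1.4 TPM on HSD and 0.468 to 1.05 TPM on chow. Of 12134 genes tested only Apoe and Apoa2 were members, and edgeR called 0 of them in 7 comparisons. None was at an unadjusted p under 0.05, and DESeq2 and limma called 0. The shares of all genes called were 0% for labelled KO against CTRL on chow, 0.0412% on HSD and 0% averaged, 0.0247% for HSD against chow in CTRL, 0.14% in labelled KO and 0.173% averaged, and 0.00824% for the interaction. Abca1 was the gene of the lipoprotein lists that rose in heart (0.47 ± 0.09, adjusted p = 0.0282), and it lost the call in 13 of 24 alternatives.

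The Apoe level was also set against the base composition of the libraries. Each gene's log2 level was first centred on its mean over the 16 libraries of the tissue. The centred levels of each library were then set against the GC share of each gene's coding transcripts. This gave a slope per 10 points of GC, relative to the tissue's mean. Apoe, at 60.6% GC, has the highest share of the members. Its share lies above that of 97.6% of the 9629 genes used for the slopes in liver. The slopes ran from -0.27 to 0.17 in liver and from -0.30 to 0.23 in WAT; those of heart ran from -0.30 to 0.13 and those of muscle from -0.14 to 0.10. In liver Apoe was at 5239, 4090, 4231 and 2626 TPM in labelled KO on HSD, against 2578, 4164, 4350 and 5618 TPM on chow. The CTRL livers had 5125, 4371, 2765 and 3304 TPM on HSD, against 3794, 5993, 4173 and 4315 TPM on chow. All groups overlapped, and each spanned a wide range. Over 16 libraries the correlation of the Apoe level with the slope was r = 0.85 in liver, 0.73 in WAT, 0.87 in heart and -0.00 in muscle, as a description of points that share library and depth. In liver Apoc3 (56% GC, r = 0.73) and Apoa5 (58.4%, r = 0.64) went the same way and Apob (43.5%, r = -0.56) the opposite way, while Apoa4, with 57.6% GC, was at r = -0.51. The order of r did not follow GC throughout. Apom (54.5%) was at r = 0.58, Apoa2 (52.7%) at 0.45 and Apoa1 (55.5%) at 0.36. Apoc1 (54.9%) was at 0.06 and Apoc2 (55.8%) at -0.41. With the GC trend removed from each library, a setting chosen after these values were seen, the averaged diet value of Apoe in liver was 0.00, that of Apoa4 2.94 (adjusted p = 0.00155) and that of Apoc2 1.03 (adjusted p = 0.00175).

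**Figure D5:**
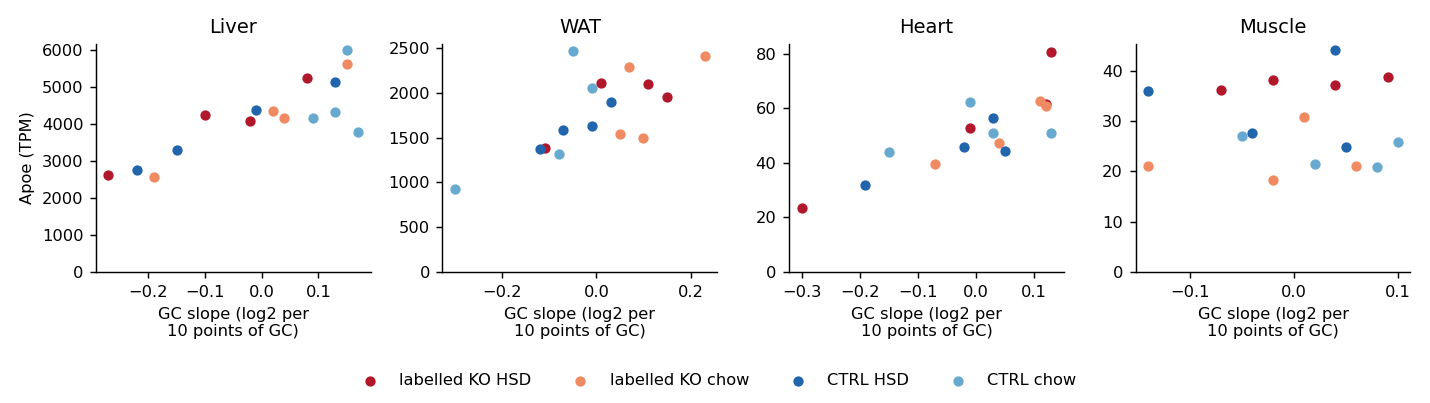
TPM of Apoe in each library against the library's slope of centred log2 level on GC share (log2 per 10 points of GC), by tissue, with groups by colour. Levels were centred on each gene's mean in the tissue. Apoe is higher in libraries with higher slopes in liver, WAT and heart (r = 0.85, 0.73 and 0.87 over 16 libraries each) and not in muscle (-0.00).

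Pairs of members were compared within liver. On log2(TPM + 1) over the 16 livers, Apoa4 and Apoc2 had r = 0.95, Apoc3 and Apoe 0.93, Apoa2 and Apoc1 0.85, and Apoa5 and Apoe 0.74, while Apob went against Apoc3 (-0.56) and Apoe (-0.51). Apoa4 and Apoc2 lie on different chromosomes, and so do Apoc3 and Apoe. The genes of its own cluster on chromosome 9 had r with Apoa4 of 0.24 (Apoa1), -0.08 (Apoc3) and 0.11 (Apoa5). These points share library, depth, base composition and group.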

How the data were processed

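RNA-seq was made from 16 libraries of each of 4 tissues. The authors deposited estimated counts per gene, which need not be whole, and TPM; the tools and builds named are kallisto and GRCm38, per the submitters' processing notes. The sources used here do not give the kallisto version, the annotation release or the strandedness. Counts were rounded to whole numbers.

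Each tissue was fitted by itself with edgeR 4.0.16 (R 4.3.3): 16 libraries, 4 group means, TMM scaling, filterByExpr with a minimum count of 10, and the robust quasi-likelihood test, 2-sided, with Benjamini-Hochberg adjustment over all genes tested and a threshold of 0.05. Standard errors are the log2 fold change over the square root of F, and are approximate. Tissues were compared in a single fit over 64 libraries. Alternatives used DESeq2 1.42.0, limma 3.58.1 on log2(TPM + 1) and log2(TPM + 0.1), other scalings, no filter, 8 libraries only, covariates and left-out libraries. The scripts were tested on simulated data. Replicates were taken as the 4 separate mice per group that the design text counts.

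All 10 members were described in every tissue. Of each pathway or marker list at most 4 genes with the smallest p were named. The neighbours in pattern were the 5 genes with the highest Pearson r of log2 CPM, leaving out members and predicted genes. Some genes that these rules name are not reported here. Other genes (Pklr, Saa1, Alb, Gm44805) were named after values were seen. The members and lists were chosen with earlier results of these data known.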

Additional observations from a re-analysis of the deposited data

Results flagged for a closer look

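In 88 groups of 4 libraries, 8 had a library far from the other 3. Chance gives about 1 in 20 groups, or 4.4, if groups are independent and values normally distributed. Members share libraries here and many values are near 0, so the 8 cannot be judged against the 4.4. In muscle, labelled-KO HSD replicate 4 was at 5.19 TPM for Apoa1 (others 1.15 to 1.79) and 1.37 TPM for Apob (0.0525 to 0.16). Muscle CTRL chow replicate 2 was at 8.04 TPM for Apoa1 (1.05 to 1.44), 0.886 TPM for Apob (0.0527 to 0.167) and 23.2 TPM for Apoc1 (1.23 to 2.68). These 2 muscles also had the most albumin, at 35.7 and 31.1 TPM. In WAT, labelled-KO chow replicate 3 was at 104 TPM for Apoa2 (4.64 to 8.64) and 25.7 TPM for Apoc3 (0 to 1.9), beside 272 TPM of albumin. WAT CTRL HSD replicate 1 was at 7.32 TPM for Apoa2 (2.02 to 2.22).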

How the results depend on the processing

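Of 821 counts of members called under alternatives, over 34 comparisons, 798 stayed within 1.5 times and 23 moved. Most main counts were 0, and liver against each other tissue gave all 10, so this total says little about how stable the calls are. In liver, the diet count in CTRL was 0 with the clock score as covariate and 0 without the high-Saa1 CTRL chow libraries, and in labelled KO it was 2 with DESeq2 and 0 to 2 with single libraries left out. In WAT, labelled KO against CTRL on chow gave 1 with no filter (Apoa5) and 0 to 2 with single libraries left out, 2 without labelled-KO chow replicate 4 (Apoa1 and Apoa2). Diet in labelled KO gave 1 with 8 libraries, 1 with DESeq2 and 0 to 2 with left-out libraries; averaged, it gave 0 with the clock score and 1 to 2. In muscle, diet gave 1 with DESeq2 in labelled KO, and averaged 1 with DESeq2 and each limma setting and 0 to 1 with left-out libraries. WAT against heart gave 9 with limma and 4 to 6 with title numbers left out, and WAT against muscle 4 to 7. Signs turned for averaged diet values that did not pass: in liver Apoa1 (0.05 with each limma setting), Apob (-0.01 with the clock score, -0.05 with the length or GC trend removed, -0.07 to 0.10 with left-out libraries) and Apoa5 (0.06 with length, 0.19 with GC, 0.13 with limma, -0.08 to 0.10); in WAT with the clock score Apoe (-0.12) and Apoc3 (-0.76); in heart Apoe (-0.14 and -0.15 with limma, -0.01 to 0.19). The muscle interaction of Apoe was -0.18 with the clock score. The cause was not tested. The labels do not say what a title number shared between tissues marks. The correlation of same-numbered libraries' deviations had a median of 0.0713 to 0.172 by tissue pair and passed 0.1 in 7 to 13 of 16 pairs, and the same number was the best match within the group in 8 to 12 of 16, a hint of pairing from the data. With the title number as a replicate block between tissues, Apoe was at 2.62 for liver against WAT and 0.98 for heart against muscle, and no count changed. Between tissues, title numbers were left out in place of single libraries, which was not run. This, the GC trend and the settings without high-albumin libraries were chosen after seeing the data, and the clock score and high-Saa1 settings with earlier results known. Low counts limit all members but Apoe in heart and muscle, and all but Apoe and Apoc1 in WAT.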

Other observations

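Apoa4 gave a few counts outside liver, too few for the filter. In heart it had 15 counts in 6 of 8 HSD libraries and 0 counts in the 8 chow libraries. In muscle it had 24 counts in 8 of 8 HSD libraries and 6 counts in 4 of 8 chow libraries, and 11 of the 24 were in labelled-KO HSD replicate 4, the muscle with the most albumin. In WAT it had 12 counts in 6 of 8 HSD libraries and 10 counts in 3 of 8 chow libraries, and 8 of the 10 were in labelled-KO chow replicate 3, the WAT library with the most albumin. Albumin per 10000000 counts was 142 on HSD and 86.2 on chow in heart, and 242 on HSD and 184 on chow in muscle. In WAT albumin was 26.1 to 44.1 TPM on HSD, against 272 TPM in labelled-KO chow replicate 3 and 9.99 to 26.6 TPM in the other 7 chow libraries. Other members near 0 went either way in heart. Apoc3 had 5 counts in 3 of 8 HSD libraries and 16 counts in 6 of 8 chow libraries. Apom had 4 counts in 2 HSD libraries and 6 counts in 3 chow libraries. Apoc2 had 5 counts in 4 HSD libraries and 2 counts in 2 chow libraries. No test was made on any of these counts, so a link of the Apoa4 counts to diet is not read from them. The part of RNA from liver or blood in them was not tested.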
